A study of Mus musculus with 22 samples.

Results

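The leg muscle of SJL mice was compared with that of Balb mice at 10 months of age, on 3 arrays per strain. These 6 arrays are all that the labels assign to leg muscle at 10 months, out of 22 in the series. The other arrays hold leg muscle of both strains at 12 months (called 1 year in the labels) and extraocular muscle, the muscle that moves the eye, at both ages. Each array measured 12488 probe sets on total RNA, of which 66 were controls. The remaining 12422 were tested, and 10833 of them carried 1 gene symbol, for 8251 different genes. The labels used here name the strains only as SJL and Balb, and give no substrain, sex, treatment or leg muscle. They do not say whether replicates came from separate animals, so p-values measure only the spread between these samples, which may be technical.

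SJL mice are known to carry a mutation in Dysf, the gene of dysferlin, a protein of the muscle fibre membrane that takes part in resealing it after injury. Fibres that lack dysferlin leak, die and regenerate, and leg muscle of ageing SJL mice slowly becomes dystrophic, with macrophages among the infiltrating cells. Regenerating or denervated fibres turn on genes of the embryonic muscle programme, such as cardiac actin and the acetylcholine receptor, while infiltrating and activated cells bring transcripts of antigen presentation and lysosomal proteases. No probe set here was named for Dysf, so the mutated gene itself was not measured. In RNA of whole muscle, more cells of a type and more RNA per cell cannot be told apart. A strain difference in a transcript's level and one in how well its probes match that strain's sequence cannot be told apart either.

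Replicate 1 of each strain stood apart in RNA quality. The ratio of the 3 prime to the 5 prime probe set of Actb was 5.05 in Balb replicate 1 and 28.7 in SJL replicate 1, against 0.847 to 1.25 on replicates 2 and 3 of both strains. The Gapdh ratios were 2.17 and 19.9 against 0.363 to 0.761. Fibre transcripts were low on the same arrays. The summed intensity of 15 skeletal muscle markers was 192940 in Balb replicate 1 and 181040 in SJL replicate 1, against 540460 to 833480 on the other 4 arrays, and 14 of the 15 markers had a mean intensity over 200. Across all probe sets the 2 replicate 1 arrays correlated with each other at r = 0.922, within the range of 0.818 to 0.939 over all pairs of the 6 arrays, although they come from different strains. Results are therefore given from limma fits of 3 kinds. The first used all 22 arrays and fitted 8 group means, 1 per strain, muscle and age. The second added the replicate number within each age as a block, shared by both strains and muscles, since the replicate 1 arrays deviated together. The third left out the 4 replicate 1 arrays at 10 months and used 18 arrays. A probe set passed when its p-value, adjusted by the Benjamini-Hochberg method over all 12422, was under 0.05.

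On all 22 arrays 29 probe sets passed (0.233% of those tested), with 15 higher in SJL (0.121%) and 14 lower (0.113%). On every one of the 29, the 3 arrays of one strain lay above the 3 of the other, and the log2 difference ran from 1.01 to 4.81 in size. Of all 12422 probe sets, 616 lay apart in this way with SJL higher and 469 with SJL lower. The 29 were called on these same arrays, so their separation is not independent of the calls. With the replicate block 118 passed (0.95%). On the 18 arrays 276 passed (2.22%), 136 higher (1.09%) and 140 lower (1.13%), with log2 differences down to 0.48, and all 29 were among them. Of the 276, 99 passed with the block on all 22 arrays. Leaving out the leg pair of replicate 1 alone, with the eye pair kept, gave 45 calls, and 23 of the 29 passed there. These fits share 1 estimate of the spread across groups. Fitted on the 6 leg arrays alone, only Phkg1 passed (adjusted p = 0.0171), and on the 4 leg arrays of replicates 2 and 3 alone 28 probe sets passed, 27 of which were among the 276. Leaving out each of the 6 arrays in turn from the 22 gave 19 to 52 calls, and 14 of the 29 passed in each of these fits. Leaving out each of the 4 arrays of replicates 2 and 3 in turn from the 18 gave 163 to 289, and 79 of the 276 passed in each. The sign of all 29 and all 276 was the same in each of those fits.

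**Figure D1:**
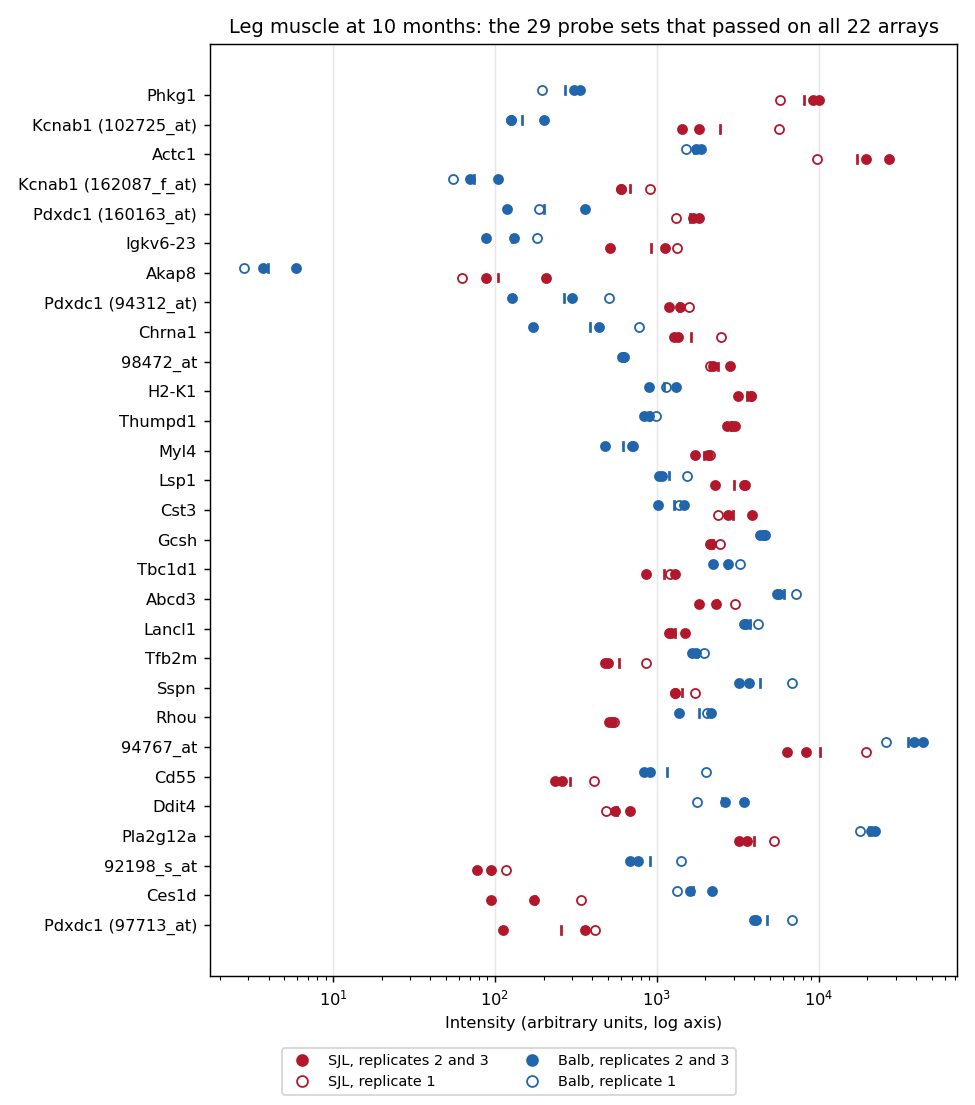
Intensity (arbitrary units, log axis) of the 29 probe sets that passed on all 22 arrays, on the 3 SJL and 3 Balb leg arrays at 10 months; open circles are replicate 1, filled circles replicates 2 and 3, and the vertical tick is the geometric mean. Each row shows the strains without overlap, from Phkg1 at the top (log2 difference 4.81) to probe set 97713_at of Pdxdc1 at the bottom (log2 difference -4.14).

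The largest rises on all 22 arrays were those of Phkg1, Kcnab1 and Actc1. Phkg1 encodes the catalytic subunit of muscle phosphorylase kinase, the enzyme that switches on glycogen breakdown. Its intensity on replicates 1, 2 and 3 was 5746, 9996 and 9262 in SJL and 195, 336 and 309 in Balb, or 8335 ± 2272 against 280.0 ± 74.8 (SD, n = 3). Every SJL array was far above every Balb array, including the pair with poor RNA. The log2 difference was 4.81 (SE 0.36, limma adjusted p = 1.02e-06). Kcnab1, an accessory beta subunit of voltage-gated potassium channels, read 5699, 1439 and 1829.7 in SJL and 126, 125 and 200.1 in Balb on probe set 102725_at. SJL replicate 1 was the highest, and the strains did not overlap (log2 difference 3.93, SE 0.51, limma adjusted p = 0.00146). A second Kcnab1 probe set, 162087_f_at, also rose, by 2.96 (adjusted p = 0.00678). It passed on the 18 arrays too (adjusted p = 0.04), a call lost without any 1 of the 4 arrays (adjusted p 0.102 to 0.214).

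Actc1, the cardiac alpha actin that skeletal muscle makes in the embryo and in regeneration, was high in SJL on both of its probe sets. Probe set 101028_i_at read 9841, 19646 and 27128 in SJL and 1508, 1878 and 1752 in Balb. All SJL arrays were above all Balb arrays, with the lowest SJL value on replicate 1, and the log2 difference was 3.34 (SE 0.49, limma adjusted p = 0.00258). Probe set 101029_f_at read 20044, 39123 and 44415 against 9215, 8186 and 8778, again without overlap. Its difference of 1.90 did not pass on all 22 arrays (adjusted p = 0.0547) but passed with the block (0.00131) and on the 18 arrays, where it was 2.30 (adjusted p = 2.32e-06). Probe sets whose names end in _f, _i, _s or _r can share sequence with other transcripts, and actins are near-identical, so the share of each actin in these signals is uncertain.

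Pdxdc1, a pyridoxal-dependent decarboxylase-like gene, moved in opposite directions on its 3 probe sets. Probe set 97713_at read 414, 112 and 359 in SJL and 6866, 4096 and 3989 in Balb, a log2 difference of -4.14 (SE 0.46, limma adjusted p = 0.000207). Probe set 160163_at read 1323, 1684 and 1833 against 188, 119 and 362 and 94312_at read 1578, 1398 and 1193 against 505, 128 and 299.8. These 2 rose, by 2.89 (adjusted p = 0.00497) and 2.28 (adjusted p = 0.01). The call of 160163_at on the 18 arrays was lost without Balb replicate 2 (0.107). All 3 probe sets separated the strains completely, so no direction can be given for the gene.

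Rises on all 22 arrays were also called for H2-K1, Thumpd1, Myl4 and Igkv6-23. H2-K1, a heavy chain of MHC class I, read 3846, 3810.2 and 3176 in SJL and 1144, 889.7 and 1316 in Balb on probe set 97700_at, with no overlap (log2 difference 1.69, SE 0.23, limma adjusted p = 0.00184). Of its other probe sets, 93120_f_at differed by 0.35 (adjusted p = 0.999) and 97125_f_at by 0.57 (adjusted p = 0.999), and MHC class I genes are close copies of each other. Thumpd1, which acts with an acetyltransferase on transfer RNA, read 2930.1, 3040.2 and 2706 against 989, 832 and 901 and rose by 1.66 (adjusted p = 0.00184). Myl4, the atrial and embryonic myosin light chain, read 2120.3, 1722 and 2069 against 709.7, 479 and 699. Its rise of 1.64 (SE 0.28, adjusted p = 0.0118) was lost without Balb replicate 2 (0.0918) or SJL replicate 3 (0.0559). Its brighter probe set 100828_at also separated the strains, with a difference of 0.64 that did not pass (adjusted p = 0.913). Igkv6-23, an immunoglobulin kappa variable segment, read 1327, 1121 and 515 against 183, 131 and 88.3 and rose by 2.69 (adjusted p = 0.01), a call lost without Balb replicate 3 (0.0773) or SJL replicate 2 (0.063).

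Lsp1, an actin-binding protein of white blood cells, read 3488, 2279.5 and 3438 in SJL and 1535, 1037 and 1075 in Balb. It rose by 1.32 (SE 0.24, limma adjusted p = 0.015), a call lost without Balb replicate 2 (0.105), Balb replicate 3 (0.104) or SJL replicate 3 (0.0872). Its second probe set, 104093_at, passed on the 18 arrays alone, with a difference of 1.32 (adjusted p = 0.0119), a call lost without Balb replicate 3 or SJL replicate 3 (adjusted p up to 0.129). Cst3, cystatin C, an inhibitor of cathepsins, read 2405, 2753 and 3879 against 1376, 1014 and 1477 and rose by 1.20 (adjusted p = 0.015), a call lost without Balb replicate 2 (0.121), SJL replicate 2 (0.0514) or SJL replicate 3 (0.091). The strains did not overlap on these probe sets of Lsp1 and Cst3. A second Cst3 probe set, 99586_at, differed by 0.08 (adjusted p = 0.999). Akap8, a nuclear anchoring protein, was called on probe set 161089_r_at at very low signal, 62.8, 208 and 88.3 in SJL and 2.8, 3.7 and 5.9 in Balb, with a difference of 2.61 (adjusted p = 0.0173), a call lost without Balb replicate 1 (0.0524), Balb replicate 2 (0.0918), Balb replicate 3 (0.0773), SJL replicate 2 (0.125) or SJL replicate 3 (0.0554). Its 4 other probe sets differed by 0.55, 0.19, -0.23 and -0.34, none of which passed. Probe set 98472_at, which has no single symbol, rose by 1.92 (adjusted p = 0.0173), a call lost without Balb replicate 2 (0.0876), Balb replicate 3 (0.0873), SJL replicate 2 (0.063) or SJL replicate 3 (0.091).

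Genes that fell on all 22 arrays included a lipid hydrolase, a stress regulator, a member of the dystrophin complex and a complement inhibitor. Ces1d, a carboxylesterase that hydrolyses triglycerides, read 339, 94.1 and 175 in SJL and 1328, 2180.4 and 1602 in Balb on probe set 101538_i_at. All SJL values were below all Balb values (log2 difference -3.11, SE 0.46, limma adjusted p = 0.00292). Its second probe set, 101539_f_at, fell on the 18 arrays by 1.30 (adjusted p = 0.00282; 0.0179 with the block). Ddit4, which restrains the growth kinase mTORC1 under stress, read 485, 552 and 687 against 1770.4, 3460.2 and 2651. The strains did not overlap, the lowest Balb value being replicate 1, and the difference was -2.12 (SE 0.31, adjusted p = 0.00258). Pla2g12a, a secreted phospholipase, read 5338, 3619 and 3220.4 against 18074, 22468 and 21113, a difference of -2.36 (adjusted p = 0.00258), and its second probe set, 104342_i_at, fell on the 18 arrays by 0.97 (adjusted p = 0.0222), a call lost without Balb replicate 3 or SJL replicate 3 (adjusted p up to 0.22).

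Sspn, sarcospan, a membrane protein of the dystrophin complex, read 1735, 1288 and 1300.1 in SJL and 6832, 3244 and 3696 in Balb. Balb replicate 1 was the highest, and all SJL arrays were lower than any Balb array. The log2 difference was -1.59 (SE 0.24, limma adjusted p = 0.0031). Cd55, the decay-accelerating factor that protects cells from complement, read 407, 234 and 261 against 2015, 907 and 835, also without overlap. It fell by 1.92 (SE 0.36, adjusted p = 0.022), a call lost without Balb replicate 1 (0.0911), SJL replicate 2 (0.125) or SJL replicate 3 (0.091). Cd55 also fell on the 18 arrays, by 1.75 (adjusted p = 0.0138), a call lost without Balb replicate 2 (0.0946), Balb replicate 3 (0.0619) or SJL replicate 2 (0.0716).

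The other falls on all 22 arrays included Lancl1, Abcd3 and Tfb2m. Lancl1, a glutathione-binding protein, read 1219.7, 1186 and 1496 in SJL and 4231, 3579.9 and 3478 in Balb (log2 difference -1.52, adjusted p = 0.00678). Abcd3, a transporter of the peroxisome membrane, read 3051, 1832 and 2333 against 7281, 5503 and 5676 (difference -1.37, adjusted p = 0.00708), a call lost without SJL replicate 2 (0.0545). Tfb2m, a mitochondrial transcription factor, read 854, 498 and 478 against 1953, 1655 and 1750.5 (difference -1.57, adjusted p = 0.0125), a call lost without Balb replicate 3 (0.0613), SJL replicate 2 (0.0711) or SJL replicate 3 (0.0802). In each of these genes the highest SJL array stayed below the lowest Balb array. Gcsh, the H protein of the glycine cleavage system, fell by 1.01 (adjusted p = 0.0156), a call lost without Balb replicate 2 (0.0655), Balb replicate 3 (0.094), SJL replicate 2 (0.0755) or SJL replicate 3 (0.0802). Tbc1d1, which regulates glucose transporter traffic in muscle, fell by 1.28 (adjusted p = 0.0482), a call lost without any 1 of the 6 arrays (adjusted p 0.0542 to 0.183). Rhou, a small GTPase, read 544, 528 and 509 against 2038, 2169.9 and 1367 and fell by 1.76 (adjusted p = 0.0125), a call lost without Balb replicate 2 (0.0918), SJL replicate 2 (0.0545) or SJL replicate 3 (0.0559). A second Rhou probe set, 162011_f_at, differed by -1.55 and did not pass (adjusted p = 0.567). Of 2 probe sets with no single symbol, 92198_s_at fell by 3.06 (adjusted p = 0.00184) and 94767_at by 1.81 (adjusted p = 0.015), the latter a call lost without Balb replicate 2 (0.11), Balb replicate 3 (0.094), SJL replicate 2 (0.107) or SJL replicate 3 (0.088).

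Some of the 29 calls also depended on single arrays within the 18. The call of Akap8 was lost without Balb replicate 2 (0.0936), Balb replicate 3 (0.0648) or SJL replicate 2 (0.133), and that of 98472_at was lost without Balb replicate 2 (0.0839), Balb replicate 3 (0.0783) or SJL replicate 3 (0.0874). The call of Igkv6-23 was lost without Balb replicate 3 (0.0937) or SJL replicate 2 (0.133), that of Tbc1d1 was lost without Balb replicate 2 (0.138) or SJL replicate 3 (0.112), and that of Myl4 was lost without Balb replicate 2 (0.0779).

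Without the replicate 1 arrays, further named genes separated the strains by large amounts. Replicates 2 and 3 alone separated the strains on many probe sets, 2456 with SJL higher and 2418 with SJL lower of all 12422. Mgst1, a glutathione transferase of microsomes, read 1863, 478 and 497 in SJL and 6993, 3076 and 3237 in Balb. All SJL arrays were below all Balb arrays, and replicate 1 was the highest of each strain. The log2 difference was -2.40 on all 22 arrays (limma adjusted p = 0.134), and did not pass there. It passed with the block (adjusted p = 4.97e-06) and on the 18 arrays, where it was -2.65 (SE 0.17, adjusted p = 1.02e-07). Acaa1b, a peroxisomal thiolase, read 921, 676 and 1376 against 369, 185 and 177 and rose on the 18 arrays by 2.32 (adjusted p = 0.00291), while its probe set 102004_at differed by 0.30 (adjusted p = 0.881). Iqgap1, a scaffold protein of the actin cortex, read 2037, 1563 and 1588 against 2394, 564 and 123, with Balb replicate 1 the highest of all, and rose on the 18 arrays by 2.49 (adjusted p = 0.00265). Its probe sets 100561_at and 93850_at differed by 0.35 and -0.40 there (adjusted p = 0.7 and 0.919). Dnmt1, the maintenance DNA methyltransferase, read 1630.0, 448 and 267 against 1371, 1541 and 1413 and fell on the 18 arrays by 2.04 (adjusted p = 0.00027), while its probe set 161601_i_at differed by 0.36 (adjusted p = 0.891). Ntsr2, a neurotensin receptor, fell by 2.15 (adjusted p = 0.00491). The calls of Mgst1, Acaa1b, Iqgap1, Dnmt1 and Ntsr2 held with each of the 4 remaining leg arrays left out.

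The other calls of this kind depended on single arrays. Among the rises, Dab2, an endocytic adaptor, rose by 2.50 (limma adjusted p = 0.023), a call lost without Balb replicate 2 (0.184) or SJL replicate 2 (0.159). Its probe sets 98044_at and 104633_at differed by -0.53 and 0.06 and did not pass. Myo1f, a myosin of white blood cells, rose by 2.55 (adjusted p = 0.0363), a call lost without any 1 of the 4 arrays (adjusted p 0.101 to 0.166). Both had Balb replicate 1 near or above SJL values, at 1295 for Dab2 and 766 for Myo1f. Among the falls, Irs2, an adaptor of the insulin receptor, fell by 2.21 (adjusted p = 0.00906), a call lost without Balb replicate 2 (0.0952) or SJL replicate 2 (0.074). Rmdn3, a mitochondrial tether to the endoplasmic reticulum, fell by 2.18 (adjusted p = 0.0281), a call lost without Balb replicate 2 (0.133), Balb replicate 3 (0.111) or SJL replicate 2 (0.234). Dbnl, an actin-binding adaptor, fell by 2.13 (adjusted p = 0.0101), a call lost without Balb replicate 3 (0.0782) or SJL replicate 2 (0.0607). Pcx, pyruvate carboxylase, fell by 2.12 (adjusted p = 0.0143), a call lost without Balb replicate 2 (0.143), SJL replicate 2 (0.0598) or SJL replicate 3 (0.066), and its probe set 162288_f_at differed by -0.19 (adjusted p = 0.955).

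Gene groups were read with 1 probe set per gene, the one with the highest mean over all arrays. Of the 8251 genes, 6 rose (0.0727%) and 11 fell (0.133%) on all 22 arrays, 38 rose (0.461%) and 46 fell (0.558%) with the block, and 95 rose (1.15%) and 112 fell (1.36%) on the 18 arrays, where the median log2 difference over all genes was -0.01. These shares are the background for the counts that follow. Counts of 0 on all 22 arrays are given with the number of members at an unadjusted limma p under 0.05; over all 8251 genes that number was 243 higher and 225 lower, and 513 and 615 on the 18 arrays.

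Several genes of antigen presentation rose in SJL with the block and on the 18 arrays. Of 24 measured genes of MHC and antigen presentation, none passed on all 22 arrays (5 at an unadjusted p under 0.05, 4 of them higher), 4 rose and 0 fell with the block, and 7 rose and 0 fell on the 18 arrays. The median difference of the list was 0.46 on the 18 arrays and 0.29 on all 22. The count of rises on the 18 arrays was 4 without Balb replicate 2, Balb replicate 3 or SJL replicate 2 and 6 without SJL replicate 3. The count on all 22 arrays was 1 without Balb replicate 1 and 0 without each other array. The summed intensity of the list was 68850 to 72651 in SJL and 46822 to 50370 in Balb, without overlap. The 7 genes called on the 18 arrays are part of these sums, and without them the sums of the strains overlapped. H2-K1 was counted here through its brighter probe set 93120_f_at, which did not pass. MHC class II is the pair of chains by which macrophages, dendritic cells and B cells show peptides to helper T cells. Its promoters carry a conserved module that ends in a Y box, the CCAAT sequence bound by NF-Y. The 250 bases before the start of both class II genes with an entry in the RefSeq promoter table are shown because these genes were called together; the capitals mark CCAAT on either strand.

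H2-Aa (GRCm38.p6, chr17:34287824-34288073, minus strand): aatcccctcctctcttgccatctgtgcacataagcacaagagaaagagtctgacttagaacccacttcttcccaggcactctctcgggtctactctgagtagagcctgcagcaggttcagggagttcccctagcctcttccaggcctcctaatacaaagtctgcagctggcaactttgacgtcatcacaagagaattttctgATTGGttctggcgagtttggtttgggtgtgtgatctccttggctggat
H2-Eb1 (GRCm38.p6, chr17:34305617-34305866, plus strand): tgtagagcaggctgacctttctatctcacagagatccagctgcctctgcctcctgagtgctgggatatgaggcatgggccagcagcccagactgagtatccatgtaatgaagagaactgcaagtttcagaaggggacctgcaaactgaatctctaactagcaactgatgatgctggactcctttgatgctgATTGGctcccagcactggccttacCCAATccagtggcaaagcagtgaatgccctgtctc

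H2-Aa has 1 match, whose first base lies 48 bases before the start, and H2-Eb1 has 2, at 59 and 35 bases. CCAAT on either strand occurs in 33.8% of 32851 mouse promoters of the same length, so a match is common. These are reference sequences, not those of SJL or Balb mice.

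H2-Aa, the alpha chain of class II A, read 195, 3785 and 4351 in SJL and 144, 455 and 530.5 in Balb. Replicate 1 of both strains was low, and on replicates 2 and 3 both SJL arrays were far above both Balb arrays. The log2 difference was 2.14 on all 22 arrays (limma adjusted p = 0.976), passed with the block (adjusted p = 0.0199) and was 3.00 on the 18 arrays (SE 0.23, adjusted p = 6.18e-07). H2-Ab1, its beta chain partner, read 557, 1515 and 1789.5 against 135, 457 and 574, again with both replicate 1 arrays lowest in their strain. Its difference was 1.65 on the 18 arrays (adjusted p = 0.00163; 0.00318 with the block). H2-Eb1, the beta chain of class II E, read 2149.7, 6554 and 5319.9 against 337, 2733 and 2323 and rose on the 18 arrays by 1.22 (adjusted p = 0.00265; 0.0167 with the block). All 3 calls on the 18 arrays held with each of the 4 arrays left out. Cd74, the invariant chain that guards the class II groove, read 1097, 6939.6 and 6115 against 746, 3180.0 and 3385 and rose there by 0.99 (adjusted p = 0.0202), a call lost without Balb replicate 2 (0.126), Balb replicate 3 (0.0769) or SJL replicate 2 (0.131).

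Beyond the class II chains, Ctss, B2m and Psmb9 rose. Ctss, cathepsin S, which trims the invariant chain, read 10421, 4572 and 3926 in SJL and 3036, 1155 and 1066 in Balb. Replicate 1 was the highest of each strain, and SJL was higher within each replicate number. It rose by 1.92 on the 18 arrays (SE 0.22, limma adjusted p = 0.00012; 0.000115 with the block), in each of the 4 fits with another array left out. B2m, the light chain of class I, read 20361, 10625 and 9824 against 11029.7, 3907 and 4980.0 and rose by 1.21 (adjusted p = 0.0271), a call lost without any 1 of the 4 arrays (adjusted p 0.0561 to 0.196). Psmb9, a subunit of the immunoproteasome, read 127, 919 and 479.6 against 119.8, 193 and 163 and rose by 1.82 (adjusted p = 0.0289), a call lost without Balb replicate 2 (0.0947), Balb replicate 3 (0.144) or SJL replicate 2 (0.231). H2-Ea, the alpha chain of class II E, pointed the other way, with 76.3, 129.5 and 345 in SJL and 323, 535 and 684 in Balb and a difference of -1.44 that did not pass (adjusted p = 0.299). In leg at 12 months H2-Ea fell by 3.98 on the 18 arrays (adjusted p = 7.95e-05).

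**Figure D2:**
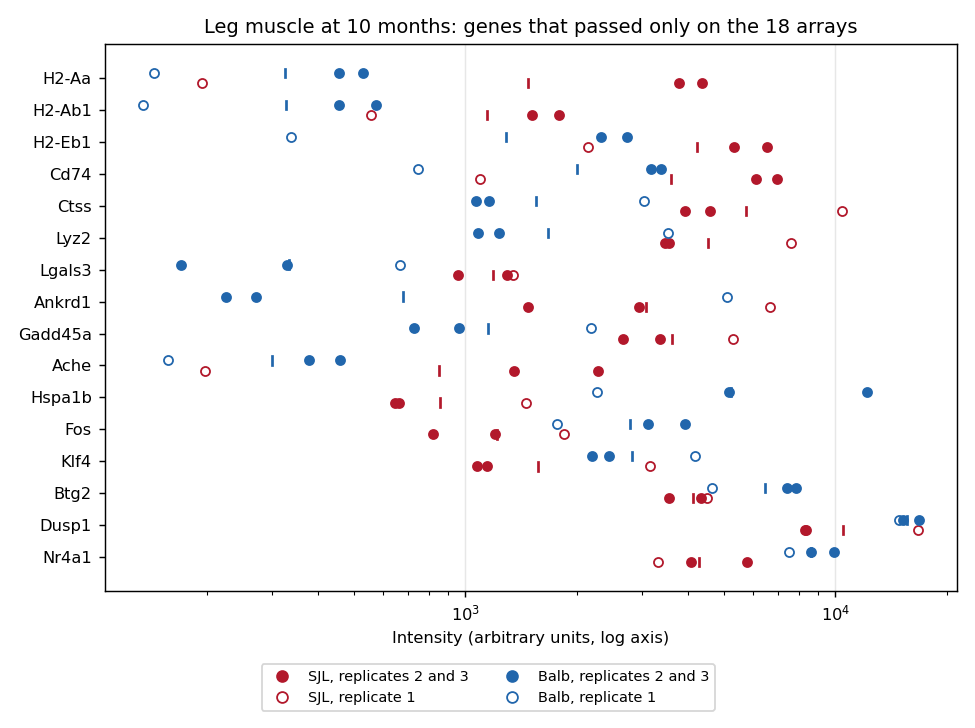
Intensity (arbitrary units, log axis) of 16 genes that passed on the 18 arrays and not on all 22, on the 3 SJL and 3 Balb leg arrays at 10 months; open circles are replicate 1, filled circles replicates 2 and 3, and the vertical tick is the geometric mean. Replicates 2 and 3 separate the strains for each gene, while replicate 1 of either strain often lies away from them, as for H2-Aa at 195 in SJL and 144 in Balb. The genes were called with these same arrays, so the separation is not independent of the calls. Over all 12422 probe sets, replicates 2 and 3 lay apart for 2456 with SJL higher and 2418 with SJL lower.

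Myeloid genes were higher in SJL by median, and a few passed. Of 48 measured genes of macrophages and other myeloid cells, none passed on all 22 arrays (11 at an unadjusted p under 0.05, all higher), 2 rose with the block and 4 on the 18 arrays, with 0 falls in any of these fits. The median difference was 0.37 on all 22 arrays and 0.44 on the 18. Rises on the 18 arrays numbered 2 without Balb replicate 2 or SJL replicate 2, 3 without Balb replicate 3 and 5 without SJL replicate 3, and on all 22 arrays it was 3 without Balb replicate 1. The summed intensity of the list was 41256 to 70729 in SJL and 28848 to 45119 in Balb, and replicate 1 had the highest sum in each strain. Lyz2, the lysozyme of macrophages and neutrophils, read 7587, 3543 and 3471 in SJL and 3532, 1079 and 1233 in Balb. Balb replicate 1 lay between SJL replicates 2 and 3, and the other Balb arrays were lower. It rose on the 18 arrays by 1.59 (SE 0.19, limma adjusted p = 0.000191; 0.0123 with the block), with each of the 4 arrays left out as well. On its probe set 162309_at the difference was 1.30 (adjusted p = 0.547).

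Lgals3, galectin-3, a lectin of activated macrophages, read 1344, 1299 and 953 in SJL and 666, 170.1 and 329.9 in Balb, with all SJL arrays above all Balb arrays. It rose on the 18 arrays by 2.15 (limma adjusted p = 0.00797), a call lost without Balb replicate 2 (0.105) or SJL replicate 2 (0.0756). Coro1a, an actin regulator of white blood cells, read 188, 1360.0 and 934 against 666, 444 and 428, with SJL replicate 1 the lowest of the 6. It rose on the 18 arrays by 1.34 (adjusted p = 0.0311), a call lost without Balb replicate 2 (0.125), Balb replicate 3 (0.127) or SJL replicate 2 (0.217), while its difference on all 22 arrays was 0.31. Ctss, described above, was the fourth. Mpeg1, the perforin-like protein of macrophages, read 6769.5, 2394 and 3362 against 1466, 936 and 1331 without overlap, and its difference of 1.33 did not pass (adjusted p = 0.256).

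Of the lymphocyte genes, the IgM heavy chain and an NK receptor rose. Of 27 genes of T, B and NK cells, none passed on all 22 arrays (3 at an unadjusted p under 0.05, all higher), 1 rose with the block and 2 on the 18 arrays, with 0 falls. The median was 0.42 on all 22 arrays and 0.14 on the 18. The rises on the 18 arrays numbered 2 without Balb replicate 2, 0 without Balb replicate 3 and 1 without either SJL array. Ighm, the heavy chain of IgM, read 4144, 12252 and 20105 in SJL and 1733, 7172 and 6054 in Balb on probe set 93583_s_at. Replicate 1 was the lowest of each strain and SJL was higher within each replicate number. It rose by 1.25 on the 18 arrays (limma adjusted p = 0.00632; 0.0179 with the block), a call lost without Balb replicate 3 (0.0655) or SJL replicate 3 (0.0734). Probe set 93584_at of Ighm separated the strains on all 6 arrays and rose on the 18 by 1.72 (adjusted p = 0.00166; 0.0158 with the block). The other 14 probe sets named for Ighm differed by -1.42 to 0.52 there and none passed. Klrd1, a receptor of NK cells, read 105, 447 and 256 against 80.6, 81.9 and 20.3, at low signal, and rose on the 18 arrays by 2.57 (adjusted p = 0.0272), a call lost without Balb replicate 3 (0.233) or SJL replicate 2 (0.176). Jchain, which joins IgM and IgA, differed by 0.46 (adjusted p = 0.655) and Cd79b, a B cell receptor chain, by -1.37 (adjusted p = 0.321).

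Interferon-responsive genes had a median difference of 0.51 on the 18 arrays and 0.22 on all 22. Of 31 measured, none passed on all 22 (5 at an unadjusted p under 0.05, 4 of them higher), 2 rose with the block, and 2 rose and 1 fell on the 18. Rises and falls on the 18 were 2 and 0 without Balb replicate 2 or SJL replicate 2, 1 and 0 without Balb replicate 3, and 3 and 0 without SJL replicate 3. A gene rose on all 22 arrays without Balb replicate 1 or SJL replicate 3. The summed intensity was 39013 to 44476 in SJL. In Balb it was 21272 and 20971 on replicates 2 and 3 and 41310 on replicate 1, among the SJL values. Ly6e, a membrane protein induced by interferon, read 14929, 16394 and 13494 in SJL and 10346, 2024 and 2668 in Balb. All SJL arrays were above all Balb arrays, but Balb replicate 1 came close. The difference was 1.96 on all 22 arrays (limma adjusted p = 0.052), where it did not pass, and 2.67 on the 18 (SE 0.15, adjusted p = 2.23e-08; 0.00987 with the block), with each of the 4 arrays left out as well. A second Ly6e probe set, 101488_r_at, differed by 0.33 (adjusted p = 0.916).

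Psme1, a proteasome activator induced by interferon gamma, read 2798, 4162 and 5899 in SJL and 1626, 3106 and 2855 in Balb and rose on the 18 arrays by 0.73 (limma adjusted p = 0.0149), a call lost without Balb replicate 2 (0.0551), Balb replicate 3 (0.111) or SJL replicate 3 (0.127). Probe set 161293_r_at of Psme1 differed by 0.42 (adjusted p = 0.935). Ifi35 went the other way, with 121, 182 and 184 against 166, 885 and 659. It fell on the 18 arrays by 1.97 (adjusted p = 0.0408), a call lost without any 1 of the 4 arrays (adjusted p 0.0988 to 0.23). Cxcl9, a chemokine induced by interferon gamma, read 173, 306 and 83.2 against 20.1, 25.8 and 33.8. The signal was low and the strains did not overlap. It passed with the block (adjusted p = 0.0372) and neither on all 22 arrays (0.0579) nor on the 18 (0.0981), with a difference of 2.11 on the 22. Igtp, an interferon-induced GTPase, differed by 1.08 on the 18 arrays (adjusted p = 0.25).

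Complement genes were called in both directions. Of 22 measured, 0 rose and 1 fell on all 22 arrays and with the block, the fall being Cd55, and 2 rose and 2 fell on the 18 arrays. Those counts were 2 and 0 without Balb replicate 2, 0 and 0 without Balb replicate 3, 1 and 0 without SJL replicate 2, and 1 and 1 without SJL replicate 3. The fall on all 22 arrays was lost without Balb replicate 1, SJL replicate 2 or SJL replicate 3. The summed intensity of the list was 32259 to 34834 in SJL and 24749 to 27441 in Balb, without overlap. Serping1, the C1 inhibitor, read 2765, 5432 and 4859 in SJL and 3447, 3680.3 and 3105 in Balb and rose on the 18 arrays by 0.60 (limma adjusted p = 0.0198), a call lost without Balb replicate 3 (0.173) or SJL replicate 2 (0.135). Clu, clusterin, read 850.2, 2159 and 2819 against 1280.0, 1420.2 and 953 and rose by 1.07 (adjusted p = 0.0145), a call lost without Balb replicate 3 (0.153) or SJL replicate 3 (0.104). On a second Clu probe set, 161294_f_at, the difference was 0.81 (adjusted p = 0.369). On the called probe sets of Serping1 and Clu, SJL replicate 1 was the lowest of the 6 arrays. Cr2, a complement receptor of B cells, was near background on every array, between 5.4 and 192, and fell on the 18 arrays by 2.30 (adjusted p = 0.0441), a call lost without any 1 of the 4 arrays (adjusted p 0.137 to 0.166). Masp1, a protease of the lectin pathway, differed by 2.16 (adjusted p = 0.0631), C3ar1, the receptor of C3a, by 0.81 (adjusted p = 0.406) and C9, a pore component, by 0.72 (adjusted p = 0.653), none of which passed. Probe sets of C1qb and C1ra that were not counted in the list rose on the 18 arrays, by 1.96 (adjusted p = 0.0065) and 1.85 (adjusted p = 0.0408). The call of C1qb was lost without Balb replicate 3 or SJL replicate 2 (adjusted p up to 0.0745). That of C1ra was lost without Balb replicate 2, Balb replicate 3 or SJL replicate 2 (adjusted p up to 0.263).

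Of 22 genes of the dystrophin complex and other sarcolemma proteins, Sspn fell and 0 rose on all 22 arrays, with the block and on the 18 arrays, and the median difference was -0.04 on all 22 and -0.13 on the 18. A rise was added without SJL replicate 3 on the 18 arrays. Tcap, a Z-disc protein, read 1338, 1938 and 666 in SJL and 1236, 328 and 175 in Balb, and its difference of 2.17 on the 18 arrays did not pass (limma adjusted p = 0.061). Dtnb, beta-dystrobrevin, differed by 1.10 (adjusted p = 0.321) and Nos1, the neuronal nitric oxide synthase, by -1.56 (adjusted p = 0.409). Of 30 genes of annexins and membrane repair or vesicle fusion, none passed on all 22 arrays (1 at an unadjusted p under 0.05, lower) or with the block, and 1 fell on the 18, where 1 rose without Balb replicate 3. The gene that fell was Anxa3, which read 1452, 486 and 123 against 1287, 897 and 788 and fell by 1.70 (adjusted p = 0.0328), a call lost without Balb replicate 2 (0.166), Balb replicate 3 (0.105) or SJL replicate 3 (0.19). Capn2, a calcium-activated protease, read 915, 1074 and 963 against 1868, 2072 and 1699 without overlap, and its difference of -0.87 did not pass (adjusted p = 0.072). The syntaxins Stx7 and Stx4a differed by 0.29 (adjusted p = 0.454) and -0.09 (adjusted p = 0.889).

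Among genes of regenerating and denervated fibres, Actc1, Chrna1, Ankrd1, Gadd45a, Tmsb10 and Ache rose on the 18 arrays. Of 43 genes of regeneration and immature fibres, 1 rose and 0 fell on all 22 arrays, 4 and 0 with the block, and 5 and 1 on the 18, with medians of 0.01 on all 22 and 0.14 on the 18. Rises and falls on the 18 arrays numbered 5 and 0 without Balb replicate 2, 4 and 0 without Balb replicate 3, 5 and 1 without SJL replicate 2 and 7 and 0 without SJL replicate 3. They numbered 3 and 0 on all 22 arrays without Balb replicate 1, 1 and 0 without SJL replicate 1, 0 and 1 without SJL replicate 2 and 0 and 0 without any 1 of the others. Of 19 genes of the neuromuscular junction and the response to denervation, 1 rose on all 22 arrays, 2 with the block and 3 on the 18, with 0 falls. The 3 became 2 without Balb replicate 2 or SJL replicate 3. The 1 on all 22 arrays became 2 without Balb replicate 1 and 0 without any 1 of the others. Chrna1, Gadd45a and Ache are the 3, and Chrna1 and Gadd45a are in both lists.

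Chrna1 encodes the alpha subunit of the acetylcholine receptor, which adult fibres confine to the synapse and which spreads along immature or denervated fibres. Its promoter is a textbook target of the MyoD family through E-boxes (CANNTG), so the 250 bases before its start are shown, with the E-boxes in capitals.

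Chrna1 (GRCm38.p6, chr2:73580339-73580588, minus strand): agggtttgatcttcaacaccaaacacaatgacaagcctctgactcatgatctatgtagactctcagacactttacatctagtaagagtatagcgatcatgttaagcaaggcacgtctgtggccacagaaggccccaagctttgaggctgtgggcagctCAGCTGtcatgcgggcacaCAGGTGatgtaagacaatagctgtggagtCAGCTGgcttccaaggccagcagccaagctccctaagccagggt

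The 3 E-boxes begin 92, 73 and 44 bases before the start, in the RefSeq sequence. CANNTG occurs in 66.2% of the 32851 promoters, so its presence says little by itself. Chrna1 read 2492, 1276 and 1352 in SJL and 775, 442 and 171 in Balb. Replicate 1 was the highest of each strain, and all SJL arrays were above all Balb arrays. The log2 difference was 2.01 on all 22 arrays (SE 0.39, limma adjusted p = 0.0251), a call lost without Balb replicate 2 (0.0876), Balb replicate 3 (0.133), SJL replicate 1 (0.0919), SJL replicate 2 (0.0527) or SJL replicate 3 (0.0559). It was 2.18 on the 18 arrays (SE 0.31, adjusted p = 0.000724), with each of the 4 arrays left out as well.

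Gadd45a, a stress and denervation response gene, read 5306, 3367 and 2668 in SJL and 2183, 959 and 725 in Balb. SJL replicates 2 and 3 were above Balb replicate 1 as well as above the other Balb arrays. It rose on the 18 arrays by 1.83 (SE 0.27, limma adjusted p = 0.000904; 0.00158 with the block), with each array left out as well. Ache, acetylcholinesterase, read 198, 1354 and 2278 against 157, 377 and 459, with both replicate 1 arrays low. It rose by 2.04 on the 18 arrays (adjusted p = 0.0138), a call lost without Balb replicate 2 (0.106) or SJL replicate 3 (0.106). Ankrd1, a titin-associated stress protein of muscle, read 6644, 2944 and 1481 against 5104, 271 and 225. Both replicate 1 arrays were the highest of their strain, and Balb replicate 1 lay above SJL replicates 2 and 3. It rose by 3.00 on the 18 arrays (SE 0.49, adjusted p = 0.00227), in each fit with another array left out. Agrn, the nerve-derived organiser of the synapse, differed by 0.41 (adjusted p = 0.569) and Runx1, induced by denervation, by 2.00 at low signal (adjusted p = 0.265).

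Tmsb10, an actin-sequestering thymosin of immature tissue, read 3794, 6486 and 7548 in SJL and 1514, 3409 and 2932 in Balb, with SJL higher within each replicate number. It rose on the 18 arrays by 1.14 (limma adjusted p = 0.00416; 0.00253 with the block), a call lost without Balb replicate 3 (0.0507). Mest, an imprinted gene of growing tissue, went the other way at low signal, 539, 71.6 and 47.4 against 336, 206 and 215. It fell by 1.60 on the 18 arrays (adjusted p = 0.0416), a call lost without any 1 of the 4 arrays (adjusted p 0.0598 to 0.153). Odc1, ornithine decarboxylase, the first enzyme of polyamine synthesis, read 5060.5, 2833 and 3482 against 2022, 1217 and 1244, without overlap. Its difference of 1.33 on all 22 arrays did not pass (adjusted p = 0.0661) and passed with the block (0.00165) and on the 18 arrays (0.00098).

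Odc1 belongs to a list of 21 genes of atrophy, stress and metallothioneins, which split. On all 22 arrays 0 rose and 1 fell (Ddit4), with the block 2 rose and 2 fell, and on the 18 arrays 3 rose and 4 fell, with a median of -0.16. The counts on the 18 arrays were 2 and 1 without Balb replicate 2 or SJL replicate 3, and 2 and 2 without Balb replicate 3 or SJL replicate 2. They were 2 and 1 on all 22 arrays without Balb replicate 1. The 3 that rose were Odc1, Gadd45a and Mt2, a metallothionein that binds zinc. Mt2 read 21395, 18547 and 17872 in SJL and 20498, 4478 and 4578 in Balb, with Balb replicate 1 among the SJL values, and rose on the 18 arrays by 2.00 (limma adjusted p = 0.029), a call lost without any 1 of the 4 arrays (adjusted p 0.092 to 0.137). Beside Ddit4, 3 stress regulators fell. Ddit3, the CHOP factor of the unfolded protein response, fell by 1.21 (adjusted p = 0.02), a call lost without any 1 of the 4 arrays (adjusted p 0.057 to 0.136). Gadd45g, a stress sensor, read 708, 2140.0 and 2507 against 1549, 4971 and 4119.7 and fell by 0.96 (adjusted p = 0.0404; 0.00634 with the block), a call lost without any 1 of the 4 arrays (adjusted p 0.0733 to 0.251). Cebpb, a transcription factor of stress and inflammation, fell by 0.78 (adjusted p = 0.0145), a call lost without Balb replicate 2 (0.136) or SJL replicate 3 (0.101). Atf3 differed by -0.64 (adjusted p = 0.37).

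Immediate early and heat shock genes were lower in SJL by median, and 6 fell on the 18 arrays. These genes respond within minutes to stimuli, stress or heat, and Hspa1b, an inducible HSP70, is switched on by HSF1 through heat shock elements. Of 38 measured, none passed on all 22 arrays (10 at an unadjusted p under 0.05, all lower), 1 fell with the block and 6 fell on the 18 arrays, where 19 had an unadjusted p under 0.05, all lower. No member rose in any of these fits. The median difference was -0.41 on all 22 arrays and -0.52 on the 18. The count of falls on the 18 arrays was 1 without Balb replicate 2, 7 without Balb replicate 3, 4 without SJL replicate 2 and 5 without SJL replicate 3, and on all 22 arrays it was 1 without Balb replicate 1. The promoter of Hspa1b is shown with the match to the core GAANNTTC, which reads the same on both strands, in capitals.

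Hspa1b (GRCm38.p6, chr17:34959239-34959488, minus strand): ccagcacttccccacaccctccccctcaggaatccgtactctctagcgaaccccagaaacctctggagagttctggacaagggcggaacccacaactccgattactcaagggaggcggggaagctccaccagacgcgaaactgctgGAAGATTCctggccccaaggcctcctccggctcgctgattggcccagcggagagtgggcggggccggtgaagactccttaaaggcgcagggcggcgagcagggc

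The match begins 104 bases before the start. The core with its parts in either order occurs in 12.8% of the 32851 promoters. The share with only the order shown here was not counted and cannot be higher. Hspa1b read 1461, 644 and 660.2 in SJL and 2274, 12208 and 5157 in Balb. All SJL arrays were below all Balb arrays, and the Balb arrays themselves spread widely, with replicate 2 highest and replicate 1 lowest. The log2 difference was -2.59 on all 22 arrays (limma adjusted p = 0.149), where it did not pass, and -3.57 on the 18 (SE 0.68, adjusted p = 0.00823; 0.0212 with the block), a call lost without Balb replicate 2 (0.108) or SJL replicate 2 (0.0545). Hspa1a is a near-identical neighbour, so the copy that gave the signal is uncertain.

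Fos, the AP-1 subunit, read 1844, 1206 and 818 in SJL and 1772, 3926 and 3109.9 in Balb. On replicate 1 the strains were alike, and on replicates 2 and 3 both SJL arrays were below both Balb arrays. It fell on the 18 arrays by 1.80 (limma adjusted p = 0.008), a call lost without Balb replicate 2 (0.0856) or SJL replicate 3 (0.0729). A second Fos probe set, 161716_at, differed by -0.17 (adjusted p = 0.969). Dusp1, the phosphatase that ends MAP kinase signals, read 16732, 8282 and 8357 against 14849, 15205 and 16805. SJL replicate 1 lay among the Balb values, while replicates 2 and 3 were lower, and the fall of 0.94 on the 18 arrays (adjusted p = 0.000724) held with each array left out. Klf4, a zinc finger factor, read 3153, 1077 and 1142 against 4175, 2446 and 2205 and fell by 1.05 (adjusted p = 0.00441), a call lost without Balb replicate 2 (0.0516), while its probe set 161185_i_at differed by 0.90 (adjusted p = 0.564). Btg2, an antiproliferative early gene, fell by 0.95 (adjusted p = 0.0239), a call lost without Balb replicate 2 (0.0965), Balb replicate 3 (0.124) or SJL replicate 3 (0.132). Nr4a1, an orphan nuclear receptor, read 3313, 4085 and 5789 against 7509.7, 8602 and 9891, without overlap on all 6 arrays. It fell by 0.92 on the 18 arrays (adjusted p = 0.0311), a call lost without Balb replicate 2 (0.0856), Balb replicate 3 (0.177) or SJL replicate 2 (0.251). Myc, at low signal, differed by -1.30 (adjusted p = 0.325).

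**Figure D3:**
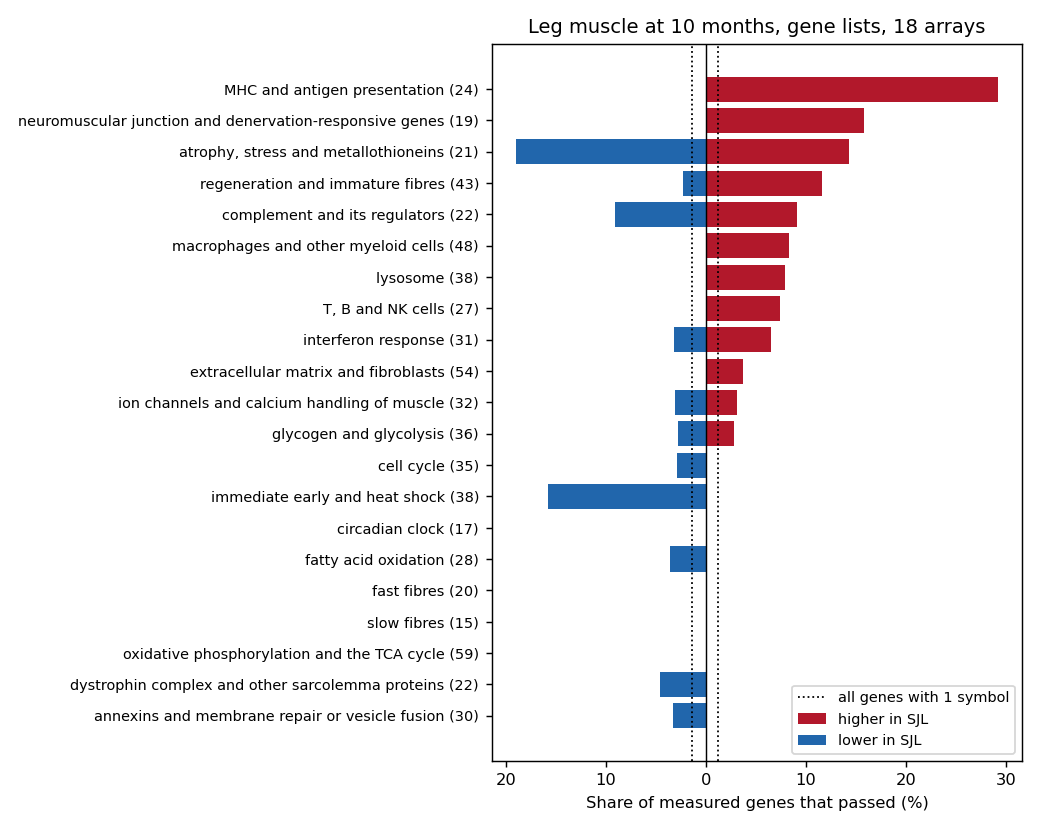
Share of the measured genes of each of 21 lists that passed in the leg at 10 months on the 18 arrays (percent; red to the right, higher in SJL; blue to the left, lower in SJL), with the number of genes measured in brackets; dotted lines mark all 8251 genes (1.15% higher, 1.36% lower). MHC and antigen presentation has the longest bar to the right (7 of 24), and the atrophy and stress list (4 of 21) and the immediate early and heat shock list (6 of 38) the longest to the left.

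Contractile, metabolic and clock genes gave few calls. Of 20 genes of fast fibres and 15 of slow fibres, none passed in any of the 3 fits on the probe sets counted. At an unadjusted limma p under 0.05 there were 0 and 1 on all 22 arrays and 3 and 5 on the 18, where 1 slow gene rose without SJL replicate 3. An uncounted probe set of Actn3, of the fast list, rose on the 18 arrays by 0.93 (adjusted p = 0.0261). That call was lost without Balb replicate 3, SJL replicate 2 or SJL replicate 3 (adjusted p up to 0.258). An uncounted probe set of Fhl1, of the slow list, fell there by 0.59 (adjusted p = 0.0222). That call was lost without Balb replicate 2, Balb replicate 3 or SJL replicate 3 (adjusted p up to 0.145). Myh4, the fastest myosin, read 0.7, 107361 and 79460.1 in SJL and 1563, 64467 and 64857 in Balb, so that both replicate 1 arrays carried almost none of its signal. Replicate 1 was low to a lesser degree for Atp2a1, the fast calcium pump (9879, 73768 and 50388 against 14055, 24297 and 29970.5), and Tnnc1, the slow troponin C (14989.8, 46315 and 31916 against 13449.8, 22143 and 30729.9). The differences on the 18 arrays were 0.51 for Myh4 (adjusted p = 0.919), 1.18 for Atp2a1 (adjusted p = 0.164), 0.56 for Tnnc1 (adjusted p = 0.217), 0.38 for Pvalb, the calcium buffer of fast fibres (adjusted p = 0.179), 0.30 for Casq1, the calcium store protein (adjusted p = 0.943), and 0.50 for Atp2a2, the slow calcium pump (adjusted p = 0.297). Csrp3, a muscle LIM protein, read 2151, 4265 and 5114 against 11554, 8203 and 8288 without overlap, and its difference of -0.82 did not pass (adjusted p = 0.148). Myl6b, a light chain, differed by -0.30 (adjusted p = 0.736).

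Of 36 genes of glycogen and glycolysis, Phkg1 rose and 0 fell on all 22 arrays, and 1 rose and 1 fell with the block and on the 18 arrays. Falls on the 18 arrays were 0 without Balb replicate 2 or SJL replicate 2 and 4 without SJL replicate 3. The gene that fell was Slc2a4, the insulin-responsive glucose transporter GLUT4, which read 1366, 9967 and 11973 in SJL and 5310.4, 18735 and 16125 in Balb. Within each replicate number SJL was lower, and replicate 1 was lowest in both strains. It fell by 0.67 on the 18 arrays (limma adjusted p = 0.017; 0.0328 with the block), a call lost without Balb replicate 2 (0.163) or SJL replicate 2 (0.153). Probe set 162385_i_at of Slc2a4 differed by -0.21 (adjusted p = 0.968). Pfkp differed by 1.71 (adjusted p = 0.0994), Slc16a1, a lactate transporter, by -1.38 (adjusted p = 0.176) and Gpd2 by -0.29 (adjusted p = 0.601). Of 28 genes of fatty acid oxidation, none passed on all 22 arrays (2 at an unadjusted p under 0.05, both lower), and 1 fell with the block, Fabp3, the muscle fatty acid carrier, at -0.81 (adjusted p = 0.0304; 0.107 on the 18 arrays). On the 18 arrays 1 fell, and 9 had an unadjusted p under 0.05, all lower. That gene was Acadm, the medium-chain acyl-CoA dehydrogenase, which read 24391, 12835 and 14552 against 23112, 30797 and 26349.6. Replicates 2 and 3 did not overlap while replicate 1 was alike in both strains, and the fall of 1.06 (SE 0.14, adjusted p = 0.000425) held with each array left out. Slc25a20, the carnitine carrier, differed by -0.44 (adjusted p = 0.059) and Ucp3 by -0.60 (adjusted p = 0.0924).

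Of 59 genes of oxidative phosphorylation and the TCA cycle and 17 of the circadian clock, none passed in any of the 3 limma fits. At an unadjusted p under 0.05 these lists had 0 and 1 genes on all 22 arrays and 5 and 4 on the 18, where 1 clock gene fell without Balb replicate 3. Cox4i1, Atp5k, Suclg1 and Ndufs4 differed by -0.40, -0.41, -0.27 and -0.55 on the 18 arrays (adjusted p = 0.547, 0.387, 0.405 and 0.313). The clock output genes Dbp and Nfil3 differed by -0.92 and -0.99 (adjusted p = 0.176 and 0.168), and the clock factors Arntl and Nr1d2 by 0.49 and -0.10 (adjusted p = 0.479 and 0.905). Of 32 genes of ion channels and calcium handling, Kcnab1 rose on all 22 arrays, with the block and on the 18, and 1 fell with the block and on the 18. A second rise appeared without SJL replicate 3 on the 18 arrays and a fall on all 22. The gene that fell was Cacna1s, the voltage sensor of excitation-contraction coupling, which read 1732, 15617 and 15389 in SJL and 7335, 24909.5 and 22375 in Balb. Replicate 1 was lowest in each strain, and the fall on the 18 arrays was 0.61 (limma adjusted p = 0.0456; 0.031 with the block), a call lost without any 1 of the 4 arrays (adjusted p 0.1 to 0.263). Cacng1, its gamma subunit, differed by -0.52 (adjusted p = 0.247) and Kcna5 by -1.04 (adjusted p = 0.448).

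Few matrix, lysosome and cell cycle genes passed. Of 54 genes of extracellular matrix and fibroblasts, none passed on all 22 arrays (6 at an unadjusted limma p under 0.05, 4 of them higher), 1 rose with the block and 2 on the 18 arrays, with 0 falls. Those 2 became 1 without Balb replicate 2 or without either SJL array and 0 without Balb replicate 3, with 1 fall without SJL replicate 3, and 1 rose on all 22 arrays without Balb replicate 1. S100a4, a calcium-binding protein of fibroblasts and macrophages, read 2439, 1528 and 1833 in SJL and 1613, 705 and 736 in Balb and rose on the 18 arrays by 1.20 (adjusted p = 0.0117), a call lost without Balb replicate 2 (0.0779), Balb replicate 3 (0.0536) or SJL replicate 3 (0.0757). Col18a1, a basement membrane collagen, read 796, 1456 and 992 against 649, 458 and 480.0 and rose by 1.33 (adjusted p = 0.0449), a call lost without Balb replicate 2 (0.181), Balb replicate 3 (0.144) or SJL replicate 2 (0.273). Its 4 other probe sets differed there by 0.01, -0.11, -0.43 and 0.43, none of which passed. Mgp, matrix Gla protein, read 2745, 2304 and 1740.1 against 1046, 1308 and 749.7 without overlap and passed with the block alone (difference 1.13, adjusted p = 0.0282). Mmp3 differed by 1.57 (adjusted p = 0.103) and Ccn2, a target of TGF-beta signalling, by -0.83 (adjusted p = 0.154).

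Of 38 lysosome genes, none passed on all 22 arrays (5 at an unadjusted p under 0.05, 4 of them higher), 1 rose with the block and 3 on the 18 arrays, with 0 falls. The 3 became 2 without Balb replicate 3 and 1 without SJL replicate 2, and 1 rose on all 22 arrays without Balb replicate 1. Beside Ctss these were 2 further cathepsins. Ctsb read 12905, 17283 and 15710.1 in SJL and 12040.0, 11074 and 9315 in Balb, without overlap, and rose on the 18 arrays by 0.70 (limma adjusted p = 0.00472), a call lost without Balb replicate 3 (0.0745) or SJL replicate 2 (0.05). Its other probe sets differed by 0.42, -0.37 and -0.48, so they did not share a direction. Ctsl read 13162, 5802 and 5819.7 against 8263, 3332 and 4188 and rose by 0.64 (adjusted p = 0.0419), a call lost without Balb replicate 2 (0.323), SJL replicate 2 (0.148) or SJL replicate 3 (0.115). Tpp1, Tcirg1 and Ctse differed by 0.42, 0.60 and -0.51 (adjusted p = 0.209, 0.31 and 0.343). Another Ctse probe set, not counted in the list, passed on the 18 arrays with a difference of -1.72 (adjusted p = 0.00491). That call was lost without Balb replicate 2 or SJL replicate 2 (adjusted p up to 0.0796). Of 35 cell cycle genes, none passed on all 22 arrays (4 at an unadjusted p under 0.05, all lower) and 1 fell with the block and on the 18. A gene fell on all 22 arrays without SJL replicate 2. Aurka, a mitotic kinase, read 736, 649 and 729.5 against 1568, 1853 and 1664, without overlap, and fell by 1.33 (adjusted p = 0.0228; 0.0279 with the block), a call lost without any 1 of the 4 arrays (adjusted p 0.0557 to 0.146). Stmn1, Tk1 and Ccnd2 differed by -1.14, -1.04 and -1.75 (adjusted p = 0.057, 0.39 and 0.28).

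Markers of other tissues that a leg sample can hold were read in the same way. None of the 9 marker lists had a call on all 22 arrays. At an unadjusted limma p under 0.05 there were 3 of 15 adipocyte genes, 2 of 12 genes of Schwann cells and nerve, 2 of 18 of endothelium and pericytes, 1 of 5 of red blood cells, 0 of 16 of mast cells and granulocytes, 2 of 21 of epithelium, 1 of 10 of cartilage, bone and tendon, 0 of 15 of skeletal muscle and 0 of 4 sex-linked genes. With the block Rgs5 fell, as it did on all 22 arrays without Balb replicate 1. On the probe sets counted there were 3 genes of these lists that passed on the 18 arrays, all lower in SJL. Beside these, 1 adipocyte gene fell without SJL replicate 2 and 1 red blood cell gene rose without SJL replicate 3. Mbp, myelin basic protein, read 787, 1208 and 778 in SJL and 729, 2059.6 and 2429 in Balb and fell by 1.19 (adjusted p = 0.0117), a call lost without Balb replicate 3 (0.0965) or SJL replicate 3 (0.102). A second Mbp probe set, 96310_at, differed by -0.14 on the 18 arrays (adjusted p = 0.947) and by 0.08 on all 22. Rgs5, a pericyte marker, read 263, 570.3 and 607 against 1145, 1653 and 1639, without overlap, and fell by 1.46 (adjusted p = 0.0384; 0.0125 with the block), a call lost without any 1 of the 4 arrays (adjusted p 0.0964 to 0.163). On its probe set 96180_at the difference was -1.06 (adjusted p = 0.121). Kit, the stem cell factor receptor of mast cells, fell at low signal by 1.82 (adjusted p = 0.0428), a call lost without any 1 of the 4 arrays (adjusted p 0.082 to 0.214). A probe set of Cma1, also of the mast cell list but not counted in it, went the other way. It rose on the 18 arrays by 2.52 (adjusted p = 0.0363), a call lost without any 1 of the 4 arrays (adjusted p 0.0786 to 0.185).

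The summed intensity of the adipocyte list was 43938 to 57056 in SJL and 35762 to 38022 in Balb, without overlap. A large part of each sum was Car3, and without that gene the sums of the strains overlapped. The median difference of the list was -0.11 on the 18 arrays, with 6 of 15 members above 0 and 9 below. At an unadjusted limma p under 0.05 there were 1 higher and 5 lower. Car3, the carbonic anhydrase of fat and slow fibres, read 21496, 26076 and 24172 in SJL and 13483, 12273 and 13248 in Balb, with a difference of 0.98 on the 18 arrays that did not pass (limma adjusted p = 0.0519). The adipocyte members Pck1, Retn and Cidea differed by -0.99, -1.03 and 0.23 (adjusted p = 0.295, 0.384 and 0.851). The sums of the marker lists of Schwann cells, skeletal muscle, epithelium, cartilage, endothelium, mast cells and red blood cells overlapped between the strains on the 6 arrays. On replicates 2 and 3 alone, those of skeletal muscle were higher in SJL (833480 and 718170 against 697000 and 540460). Those of Schwann cells and nerve were lower there (8049.1 and 5858.5 against 8468.2 and 9853.3), and the others still overlapped. Of the sex-linked genes, Xist read 141, 1579.5 and 660.4 in SJL and 292, 492 and 629 in Balb and the Y-linked Eif2s3y read 1266, 713 and 900.2 against 992, 787 and 633. Their differences on the 18 arrays were 0.86 (adjusted p = 0.547) and 0.18 (adjusted p = 0.931). The part of these tissues in the differences between the strains was not tested.

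Leg muscle of the same strains at 12 months was measured on 6 other arrays, so its strain means share no array with those at 10 months. The calls at both ages came from the same fit, with 1 estimate of the spread for each probe set, so they are not independent. Of the 29 probe sets called at 10 months on all 22 arrays, 21 passed at 12 months in the same direction, which is 72.4% of the 29 and 30% of the 70 called at 12 months (0.564% of those tested), and 28 had the same sign. On the 18 arrays 125 of 276 did so, or 45.3% of those at 10 months and 26.4% of the 473 called at 12 months (3.81%). The sign was the same for 233 of the 276, and 1 passed in the opposite direction. Phkg1 read 13724, 14297 and 15295 in SJL and 152, 78.7 and 104 in Balb at 12 months, a difference of 6.86. Actc1, Kcnab1, Sspn, Cd55 and the 97713_at probe set of Pdxdc1 differed at 12 months by 3.01, 3.73, -1.99, -2.12 and -6.40, all passing on all 22 arrays. Ankrd1 differed by 2.73, Mgst1 by -2.91 and Ctss by 2.24, and these passed as well on the 18 arrays (adjusted p = 0.000576, 1.29e-09 and 8.82e-07).

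The strain difference of Fos and of Klf4, both lower in SJL at 10 months, changed by 12 months on the 18 arrays. Ddit4, Fos and Hspa1b, which fell at 10 months, did not pass at 12 months. Ddit4 read 1155, 1333 and 1166 in SJL and 2002, 869 and 969.6 in Balb at 12 months, a log2 difference of 0.03 (limma adjusted p = 0.981) against -2.27 at 10 months. At 12 months Balb replicate 1 was the highest and the strains overlapped. Fos read 1834, 1291 and 1957 against 1197, 625 and 759.5, a difference of 0.99 (adjusted p = 0.06) against -1.80. Hspa1b differed by 0.83 (adjusted p = 0.568) against -3.57. Of the 38 immediate early and heat shock genes, 1 rose and 0 fell at 12 months on the 18 arrays, with a median of 0.18 against -0.52 at 10 months. The change of the strain difference was itself tested. By limma 0 probe sets passed on all 22 arrays, where 472 had an unadjusted p under 0.05. Without replicate 1, 4 passed (0.0322%), each with a higher SJL value relative to Balb at 12 months. These were Fos, by 2.79 (SE 0.44, adjusted p = 0.0299), Klf4, by 1.56 (SE 0.24, adjusted p = 0.0299), and 2 probe sets with no single symbol. Ddit4 (change 2.30, adjusted p = 0.0568), Hspa1b (change 4.40, adjusted p = 0.0655), H2-Aa (change -1.66, adjusted p = 0.0568) and Phkg1 (change 2.03, adjusted p = 0.0568) did not pass. The sex, substrain and harvest of the arrays at each age are not in the labels, so age and any such difference cannot be told apart.

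**Figure D4:**
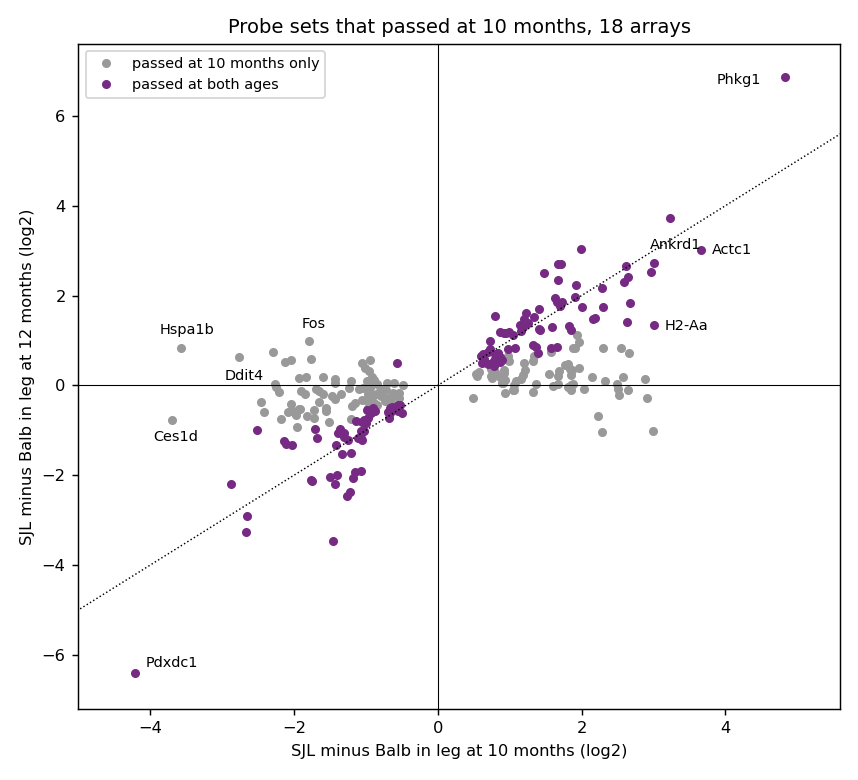
SJL minus Balb log2 difference in leg at 10 months (x axis) and at 12 months (y axis) for the 276 probe sets that passed at 10 months on the 18 arrays; purple points also passed at 12 months, grey points did not, and the dotted line marks equal differences. Pdxdc1 (-4.21 and -6.40) and Phkg1 (4.83 and 6.86) mark the ends, both larger at 12 months, while Ddit4, Fos and Hspa1b lie left of 0 on the x axis and above 0 on the y axis.

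MHC and muscle response genes were read at both ages on the 18 arrays. Of the 24 MHC genes 6 rose and 1 fell at 12 months, the fall being H2-Ea. H2-Aa differed by 1.34 there (adjusted p = 0.000296) against 3.00 at 10 months, with Balb values of 2426, 1300.0 and 2031 at 12 months. Of the 48 myeloid genes 7 rose at 12 months against 4 at 10 months, and of the 43 regeneration genes 7 rose and 0 fell against 5 and 1. Chrna1 rose at 12 months by 1.49 (adjusted p = 0.00199) and Gadd45a by 1.32 (adjusted p = 0.00171), while Ache differed by -0.08 (adjusted p = 0.96). Gene-level calls at 12 months were 1.88% higher and 2.3% lower on the 18 arrays, against 1.15% and 1.36% at 10 months.

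Extraocular muscle of the same strains at 10 months gave a second comparison with no array shared in the means, but with the same shared estimate of the spread. Of the 29 probe sets, 12 also passed there in the same direction on all 22 arrays, or 41.4% of the 29 and 60% of the 20 called in eye muscle (0.161%; 0.0886% higher and 0.0725% lower in SJL), and 28 had the same sign. On the 18 arrays 64 of 276 passed, or 23.2%, and 18.5% of the 346 in eye muscle (2.79%; 1.12% higher and 1.67% lower). The sign was the same for 211 of the 276, and 4 passed in the opposite direction. Phkg1 differed in eye muscle by 4.79, Sspn by -1.85 and H2-K1 by 2.31 on the 18 arrays, against leg values of 4.83, -1.41 and 1.67. Actc1 read 16562, 64379.5 and 64571 in SJL and 16281, 52683 and 51669 in Balb eye muscle, high in both strains, a difference of 0.30 against 3.66 in leg. That gap between the muscles, 3.35 (SE 0.24), passed on the 18 arrays (adjusted p = 2.33e-06).

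The difference between leg and eye muscle gave 0 calls by limma on all 22 arrays (446 probe sets had an unadjusted p under 0.05), 6 with the block and 47 on the 18 arrays (0.378%), 28 of them with a higher SJL value relative to Balb in leg (0.225%). Ache rose in SJL leg and differed by -1.64 in eye muscle, a gap of 3.67 (SE 0.59, adjusted p = 0.00625). Mapk8ip3, a scaffold of JNK signalling and axonal transport, read 916, 1033 and 546 in SJL and 571, 214 and 182 in Balb leg. It rose there by 1.85 (adjusted p = 0.00411), a call lost without SJL replicate 2 (0.0607), and differed by -1.19 in eye muscle (gap 3.04, adjusted p = 0.00423). Dnmt1 fell in leg by 2.04 and differed by 0.39 in eye muscle (gap -2.43, adjusted p = 0.00423). For Elovl5, Tsen34, Npnt, Myl2 and Abcb10 the gap passed without a call in leg. Their leg differences on the 18 arrays were 0.02, 0.60, -1.39, 0.27 and -0.54, against -2.30, -1.64, 1.86, 2.68 and 1.84 in eye muscle. Of the 15 slow fibre genes, which include Myl2, the slow myosin light chain, 7 rose in SJL eye muscle on the 18 arrays and 0 in leg. Over all genes 1.31% rose and 1.9% fell in eye muscle. Immediate early and heat shock genes fell in both muscles at 10 months, 6 of 38 in each on the 18 arrays.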

How the data were processed

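Per the labels, a standard Affymetrix protocol was used on 22 muscle samples. The authors deposited 1 linear intensity per probe set and array, and all arrays shared a common trimmed mean (2% trimmed). How those values were computed from the scans is not given in the sources used here. The deposited intensities were turned into log2(intensity + 16), so a log2 difference understates the change of dim probe sets. The number of arrays limits the precision. Probe set names came from the platform annotation (10833 with 1 symbol, 396 with several, 1193 with none), and 10817 were matched to current RefSeq symbols. Promoters came from a RefSeq table of build GRCm38.p6. Values read for a gene are probe set intensities in arbitrary units, so levels are not compared between probe sets.

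Differences are SJL minus Balb from limma 3.58.1 in R 4.3.3 (lmFit, and eBayes with an intensity trend; tables with Python 3.11.15, pandas 2.3.3 and matplotlib 3.10.9). The fit was also run on simulated data with independent noise and no arrays of poor RNA. That run therefore cannot show how the replicate 1 arrays affect the calls. The comparison was fitted on 22 arrays, with 14 residual degrees of freedom and a median SE of 0.472, and without replicate 1 on 18 arrays, with 10 and 0.436. Tests are two-sided, with Benjamini-Hochberg adjustment over 12422 probe sets. Deviations of same-numbered arrays from their strain means correlated between the strains at r = 0.577, 0.287 and 0.241 for replicates 1, 2 and 3. The replicate number is taken from the labels. SJL replicate 3 matched Balb replicate 2 best. Without replicate 1, the correlation of the replicate 2 minus 3 differences was 0.011, so the pairing lay mainly in replicate 1. Other settings were other pseudocounts, a filter on dim probe sets, other centring, quantile normalization, array weights, the Actb ratio as a covariate and arrays left out.

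The comparison, its gene lists and its members were chosen with earlier results of these data known. Named genes are the up to 12 largest calls per direction on 22 arrays and 8 found only on the 18 arrays, with all arrays of one strain above the other and a mean intensity of at least 400 in the higher strain. To these are added up to 4 members per list with the smallest p, the 4 largest calls per direction in each difference of differences, and Cd55. The remaining calls among the 29, the further list members and uncounted probe sets of list members that passed on the 18 arrays, and Myh4 were named after their values were seen.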

Additional observations from a re-analysis of the deposited data

Results flagged for a closer look

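For the named probe sets given here the strain difference in leg at 10 months was tested against that of another group by limma on the 18 arrays, and the difference passed. From 10 to 12 months in leg, the SJL minus Balb difference changed by 2.79 for Fos (SE 0.44, adjusted p = 0.0299), by 1.56 for Klf4 (SE 0.24, adjusted p = 0.0299) and by 1.52 for 94767_at, which has no single symbol (SE 0.23, adjusted p = 0.0299). No probe set passed this test on all 22 arrays, where 472 had an unadjusted limma p under 0.05.

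Between leg and eye muscle at 10 months, the smallest adjusted p was that of Actc1, with a leg minus eye gap of 3.35 on 101028_i_at (SE 0.24, adjusted p = 2.33e-06) and 2.06 on 101029_f_at (SE 0.27, adjusted p = 0.00133). Among immune genes it was 2.12 for H2-Aa (SE 0.32, adjusted p = 0.00423), 1.47 for Lyz2 (SE 0.27, adjusted p = 0.0204) and 1.21 for Ly6e (SE 0.22, adjusted p = 0.0159). The gap was 3.67 for Ache (SE 0.59, adjusted p = 0.00625), 3.04 for Mapk8ip3 (SE 0.46, adjusted p = 0.00423), 2.32 for Elovl5 (SE 0.42, adjusted p = 0.0186) and 2.25 for Tsen34 (SE 0.34, adjusted p = 0.00425). It was -3.26 for Npnt (SE 0.52, adjusted p = 0.00613), -2.43 for Dnmt1 (SE 0.37, adjusted p = 0.00423), -2.41 for Myl2 (SE 0.29, adjusted p = 0.00113) and -2.38 for Abcb10 (SE 0.48, adjusted p = 0.0393). For Tnnc1, the slow troponin C, it was -2.23 (SE 0.29, adjusted p = 0.00133), and for Mbp -1.89 on 96311_at (SE 0.34, adjusted p = 0.015). None of these passed on all 22 arrays, where 446 probe sets had an unadjusted limma p under 0.05. The groups compared hold 2 arrays each on the 18 arrays at 10 months and 3 each at 12 months.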

How the results depend on the processing

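The strain difference in leg at 10 months gave 29 calls by limma on all 22 arrays. It gave 276 without the 4 replicate 1 arrays, 83 with array weights, 138 with the Actb ratio as a covariate, 118 with the replicate block and 1 with only the groups compared. Leaving out 1 array gave 19 (without SJL replicate 2) to 52 calls (without either replicate 1 array). Settings chosen after seeing the data gave 317 (quantile normalization without replicate 1), 45 (without the 2 leg replicate 1 arrays, with 6 of the 29 lost) and 220 (block without replicate 1), and 163, 186, 192 and 289 on the 18 arrays without Balb replicate 2, Balb replicate 3, SJL replicate 2 and SJL replicate 3. Other pseudocounts, centring, quantile normalization and a filter on dim probe sets gave 28 to 39. The change of the leg difference with age gave 0 calls on all 22 arrays, 4 without replicate 1, 1 with quantile normalization, 1 with only the groups compared, 0 to 2 with 1 array left out, and 10 with quantile normalization without replicate 1. The difference between leg and eye muscle gave 0, then 2 with quantile normalization, 47 without replicate 1, 6 with array weights, 7 with the Actb covariate, 6 with the block and 61 with quantile normalization without replicate 1. The block kept all 29 calls and added 18 of the 58 named genes that were called, on the probe sets counted, only without replicate 1. Of the 276 calls 99 passed with it. With the block on the 18 arrays, the second Kcnab1 probe set was no longer called (adjusted p = 0.0708), nor were 10 of those 58 (Myo1f, Rmdn3, Coro1a, Cr2, Anxa3, Mest, Ctsl, Nr4a1, Cacna1s and Kit, adjusted p = 0.0502 to 0.0894). The difference of Coro1a (96648_at) reversed without SJL replicate 2 (-0.235, adjusted p = 0.974), within a range of -0.235 to 1.142 with 1 array left out, and the cause was not tested. Signal limits dim probe sets such as those of Akap8, Cr2, Klrd1, Mest and Kit.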
